A study of Mus musculus with 6 samples.

Results

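The creatine and adenylate kinases described here are the genes Ckb, Ckm, Ckmt1, Ckmt2, Ak1 and Ak4, followed in the mouse uterus after a single injection of estradiol (E2), the main ovarian estrogen. They were chosen by gene symbol, with earlier results of these data known. All 11 probe sets annotated to the 6 symbols were taken, of 12422 probe sets and 8251 named genes on the array. Ckm, Ckmt1 and Ak4 had 2 probe sets each, Ckmt2 had 3, and Ckb and Ak1 had 1 each.

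The 6 groups, with 1 array each, were uteri of female C57Bl/6 mice aged 10 to 11 weeks. The labels give this age, but also mice received at 10 weeks and acclimated for 3 weeks, and these statements conflict. Those given E2 received 0.05 µg per mouse under the skin and were killed 1, 3, 6, 12 or 24 h later. The vehicle group was killed 24 h after its injection, which matches the 24 h E2 group alone, and at the earlier E2 times the hormone and the time since injection cannot be told apart. All mice, the vehicle mice included, had been ovariectomised 7 days before they were killed. Whole uteri were pooled before RNA was extracted. The labels give 10 mice without saying whether that is per group. With 1 array per group there is no spread between replicates, so nothing was tested, no error can be given, and each comparison describes 2 pools. The arrays read RNA from the whole organ, in which fewer cells of a type and less RNA per cell cannot be told apart.

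Creatine kinases move a phosphate group between ATP and creatine, and so keep a store of phosphocreatine that can refill ATP where demand is high. Adenylate kinases turn a pair of ADP molecules into ATP and AMP and back, which recovers energy from ADP and makes the AMP that energy sensors read. The brain-type creatine kinase, encoded by Ckb, is known as the estrogen-induced protein of the rodent uterus, first described in the rat.

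Among these kinases, Ak1 and Ckmt1 were more than 2-fold higher after E2 than with vehicle, and they differed in timing. Ak1, the main cytosolic adenylate kinase, was highest at 6 h, at least 8.45-fold above vehicle, and was closer to vehicle at 24 h. Ckmt1, the mitochondrial creatine kinase of tissues other than striated muscle, was highest at 24 h by probe set 160565_at, at least 3.76-fold above vehicle. The other Ckmt1 probe set, 161495_r_at, was under the detection floor at 24 h. With a higher floor, neither Ak1 nor Ckmt1 reached 2-fold at 24 h. Ckb was 1.34-fold lower at 1 h and 1.58-fold higher at 24 h. Ckm and Ckmt2, the creatine kinases of striated muscle, and Ak4, a mitochondrial adenylate kinase, stayed under or near the detection floor on these 5 arrays.

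The array labelled 3 h stood apart and is given separately. Its rank correlation over all probe sets with the others was 0.843 to 0.857 in 5 pairs, against 0.929 to 0.968 in the 10 pairs among the others. The summed signal of 19 skeletal muscle markers was 161790 on it, against 4412 to 6006 on the other arrays. For 14 uterine epithelium markers the sum was 1243, against 13696 to 51238, and for 10 smooth muscle markers 15427, against 42985 to 71938. Stroma markers (14 genes), at 75856 on it, against 39274 to 88286, and endothelium markers (9 genes), at 3849, against 3125 to 5451, lay within the range of the others. Epithelium and smooth muscle markers of the labelled organ were thus low on this array, and skeletal muscle markers were high. The stroma markers differed among themselves. Of 13 measured on it or with vehicle, 7 were 2-fold lower on it (13.0% of all named genes measured) and 2 higher (11.4%). The 2 higher were the collagens Col1a1, at 22461 against 10342 with vehicle, and Col1a2, at 20282 against 4359. Hoxa11 had 14.6 on it, against 2662 with vehicle, and Hoxa10 2.20, against 368.4. Of 9 endothelium markers, 2 were 2-fold lower (13.0%) and none higher (11.4%). Red cell markers (6 genes) summed to 47997 on it, against 3082 to 4718, and leukocyte markers (12 genes) to 32257, against 6514 to 9761.

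Promoter sequence is shown for Ckb, known for its induction by estrogen, and for Ak1 and Ckmt1, the genes 2-fold higher at 24 h with the detection floor used here, because estrogen receptors bind the letters GGTCANNNTGACC and its half-site. Each line gives the 250 bases before a start site in RefSeq (GRCm38.p6), 5′ to 3′ on the gene's strand, with matches to the half-site (GGTCA or TGACC) and to the TATA motif (TATAAA or TTTATA) in capitals. Ckb lies on the minus strand (chr12:111672339-111672588), Ckmt1 on the plus strand (chr2:121357526-121357775) and Ak1 on the plus strand (chr2:32621508-32621757). For Ckmt1 and Ak1, which have several start sites, the one nearest the 5′ end of the gene is shown.
Ckb: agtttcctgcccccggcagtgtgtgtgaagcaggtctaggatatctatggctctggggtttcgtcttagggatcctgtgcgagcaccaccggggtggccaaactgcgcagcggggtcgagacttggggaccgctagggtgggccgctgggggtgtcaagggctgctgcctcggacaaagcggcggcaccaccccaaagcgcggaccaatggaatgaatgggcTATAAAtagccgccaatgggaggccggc
Ckmt1: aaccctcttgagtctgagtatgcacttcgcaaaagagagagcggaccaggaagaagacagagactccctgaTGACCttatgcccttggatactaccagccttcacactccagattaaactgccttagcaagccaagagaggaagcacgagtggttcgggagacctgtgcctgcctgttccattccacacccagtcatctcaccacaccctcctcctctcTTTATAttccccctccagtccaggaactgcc
Ak1: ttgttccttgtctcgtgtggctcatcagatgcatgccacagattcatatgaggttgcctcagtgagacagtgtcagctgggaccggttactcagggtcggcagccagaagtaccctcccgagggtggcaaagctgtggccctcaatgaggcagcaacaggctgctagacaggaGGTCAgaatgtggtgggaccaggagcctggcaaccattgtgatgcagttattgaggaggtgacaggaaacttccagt
In the Ckb window TATAAA began at position -28 from the start site, and neither half-site was found. The Ckmt1 window held TGACC at -179 and TTTATA at -31, and the Ak1 window GGTCA at -77. The table held 13 windows of the 6 kinases, some of the same gene overlapping, of which none had the full element on either strand, 7 had a half-site, 2 had the TATA motif and 2 had a GC box (GGGCGG or CCGCCC). Of 32851 windows of the same length over all genes, 0.0639% held the full element, 35.2% a half-site, 12.4% the TATA motif and 32.7% a GC box. Both Ckmt1 windows and all 4 Ak1 windows held a half-site, as did 1 of 4 for Ak4 and none for Ckb, Ckm or Ckmt2. The full element contains both half-sites. A match describes the letters only, and its absence says nothing about the estrogen receptor outside these windows.

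**Figure D1:**
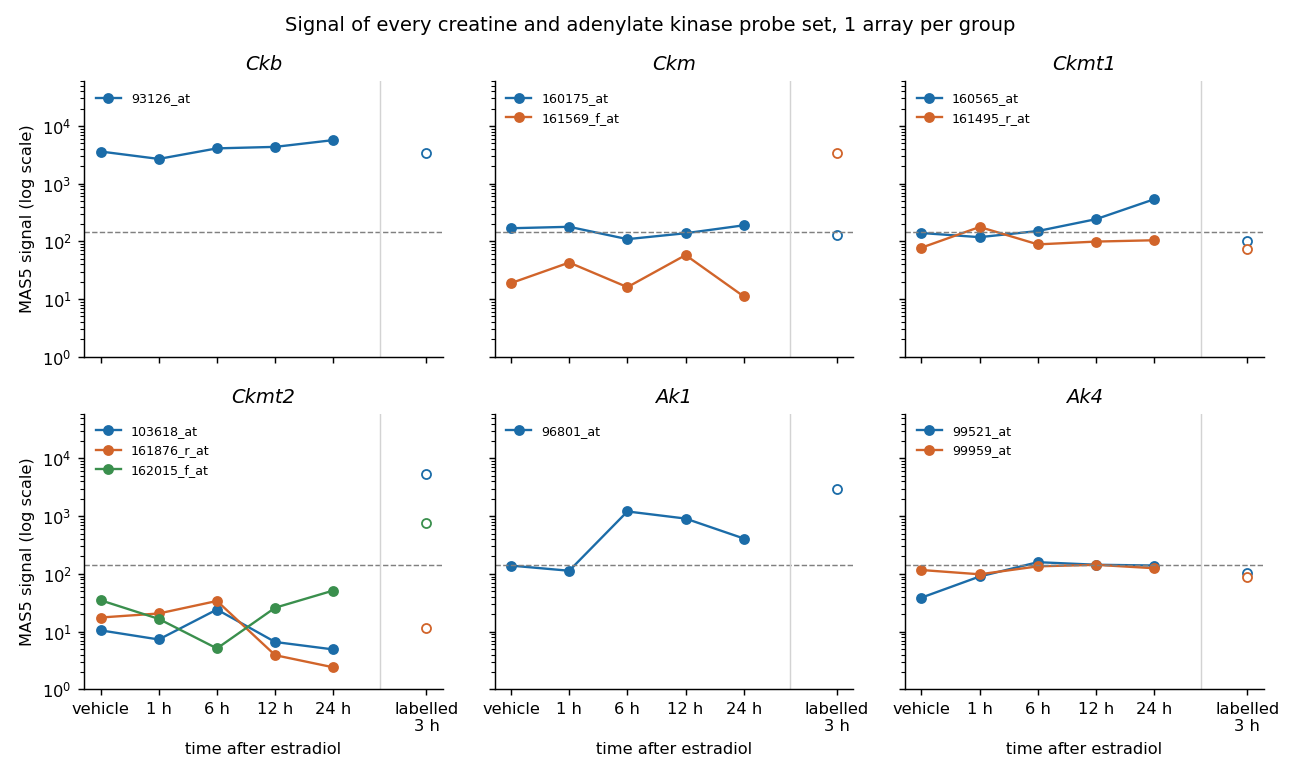
MAS5 signal of each probe set (log scale) in vehicle and at 1, 6, 12 and 24 h after E2 (filled points, joined by lines) and on the array labelled 3 h (open points), 1 array per point. The dashed line is the floor of 142.8. Ckb lies far above it throughout, Ak1 exceeds it from 6 h and Ckmt1 160565_at is highest at 24 h. On the array labelled 3 h, Ckm 161569_f_at, Ckmt2 103618_at and Ak1 stand far above their other points.

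Values are MAS5 signal, the array software's brightness summary for a probe set, after the 6 arrays were set to a common trimmed mean. Signal under 142.8, the 40th percentile of all values, was treated as below the detection floor. A fold against such a value was computed against the floor and is written as at least that fold, and none is given where both arrays lay below it. A probe set that reached the floor on 1 or both of the arrays compared is called measured. Levels of different probe sets are not set against each other.

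Ckb makes the cytosolic brain-type creatine kinase. Its signal was 3607 with vehicle and 2682, 4088, 4338 and 5685 at 1, 6, 12 and 24 h. The 24 h array was the highest and the 1 h array the lowest, with vehicle between 1 and 6 h. The log2 ratio to vehicle was -0.43 (1 h), 0.18 (6 h), 0.27 (12 h) and 0.66 (24 h), so the gene was 1.13-fold higher at 6 h and 1.20-fold higher at 12 h. Many other probe sets differed as much. Of all probe sets measured, 34.8% had a ratio as high or higher at 6 h, 31.0% at 12 h and 8.73% at 24 h, and 8.04% had one as low or lower at 1 h. Between neighbouring times the largest difference was 1.52-fold, at 6 h over 1 h, then 1.31-fold at 24 h over 12 h and 1.06-fold at 12 h over 6 h. Against the 1 h array instead of vehicle, Ckb at 24 h was 2.12-fold higher, a ratio that 3.25% of measured probe sets reached.

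Ckmt1 encodes the ubiquitous mitochondrial creatine kinase, which sits between the mitochondrial membranes and charges creatine with phosphate from newly made ATP. Probe set 160565_at gave 139.6 with vehicle and 118.3, 151.1, 242.6 and 537.6 at 1, 6, 12 and 24 h. It was under the floor with vehicle and at 1 h, just above it at 6 h, and higher at each later time. The gene was at least 1.06-fold higher than vehicle at 6 h, at least 1.70-fold at 12 h and at least 3.76-fold at 24 h. The last, a log2 ratio of at least 1.91, was reached by 0.736% of measured probe sets. Signal at 12 h was 1.61-fold above that at 6 h, and at 24 h 2.22-fold above that at 12 h. The other probe set, 161495_r_at, did not show it. Its signal was 77.8 with vehicle and 177.7, 88.7, 99.2 and 104.6 at 1, 6, 12 and 24 h, above the floor at 1 h alone (at least 1.24-fold). The suffix r marks probe sets designed under relaxed rules.

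Ckm makes the muscle-type cytosolic creatine kinase. For 160175_at the signal was 168.8 with vehicle and 178.8, 109.3, 138.4 and 189.8 at 1, 6, 12 and 24 h, on both sides of the floor. Its ratios stayed small, 1.06-fold higher at 1 h, at least 1.18-fold lower at 6 and 12 h and 1.12-fold higher at 24 h. Probe set 161569_f_at gave 18.9 with vehicle and 43.0, 16.1, 57.9 and 11.1 at the same times, all under the floor. Ckmt2 makes the sarcomeric mitochondrial creatine kinase of heart and skeletal muscle. Its 3 probe sets were under the floor on all 5 arrays, at 4.90 to 24.1 (103618_at), 2.40 to 33.9 (161876_r_at) and 5.10 to 51.4 (162015_f_at). The suffix f marks probe sets whose probes may match related family members.

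Ak1 is the cytosolic adenylate kinase that is abundant in muscle, brain and red cells. Signal was 139.1 with vehicle and 113.2, 1206, 907.8 and 409.8 at 1, 6, 12 and 24 h. Vehicle and 1 h lay under the floor, and the 3 later arrays lay well above it, in falling order of level with time. Ak1 was at least 8.45-fold higher than vehicle at 6 h (log2 ratio 3.08), at least 6.36-fold at 12 h (2.67) and at least 2.87-fold at 24 h (1.52). A ratio as high was found for 0.151% of measured probe sets at 6 h, 0.164% at 12 h and 1.27% at 24 h. Signal at 12 h was 1.33-fold lower than at 6 h, and at 24 h 2.22-fold lower than at 12 h. Ak4 makes a nucleotide kinase of the mitochondrial matrix. Probe set 99521_at gave 38.7 with vehicle and 90.0, 159.4, 143.9 and 139.5 at 1, 6, 12 and 24 h, and 99959_at gave 116.6 and then 98.3, 135.0, 143.4 and 125.2. The highest of these lay just above the floor, and the largest fold was at least 1.12, for 99521_at at 6 h.

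Of the 11 probe sets, the number measured was 3 (1 h), 5 (6 h), 6 (12 h) and 4 (24 h). None was 2-fold higher or lower at 1 h, where 1.08% of all measured probe sets were 2-fold higher and 0.552% lower. At 6 h only Ak1 was 2-fold higher (6.68% of all measured probe sets) and none lower (8.39%). The same held at 12 h, against 6.69% higher and 7.25% lower. At 24 h Ak1 and Ckmt1 160565_at were 2-fold higher (3.49%) and none lower (3.75%). With a 1.5-fold limit the higher members were none at 1 h (5.43%), Ak1 at 6 h (15.7%), Ak1 and Ckmt1 at 12 h (16.5%), and Ak1, Ckmt1 and Ckb at 24 h (10.8%). None was 1.5-fold lower at 1 h (3.79%), 6 h (19.3%), 12 h (18.1%) or 24 h (13.1%). Set against the 1 h array, Ckb, Ckmt1 160565_at and Ak1 were 2-fold higher at 24 h out of 5 measured (3.96% of all) and none was lower (3.59%). The floor decided several of these counts. With a floor at the 60th percentile of all values (352.7), neither Ak1 nor Ckmt1 reached 2-fold at 24 h, and with one at the 20th percentile (39.8), Ak4 99521_at passed 2-fold at 1, 6, 12 and 24 h and Ckmt1 161495_r_at at 1 h.

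**Figure D2:**
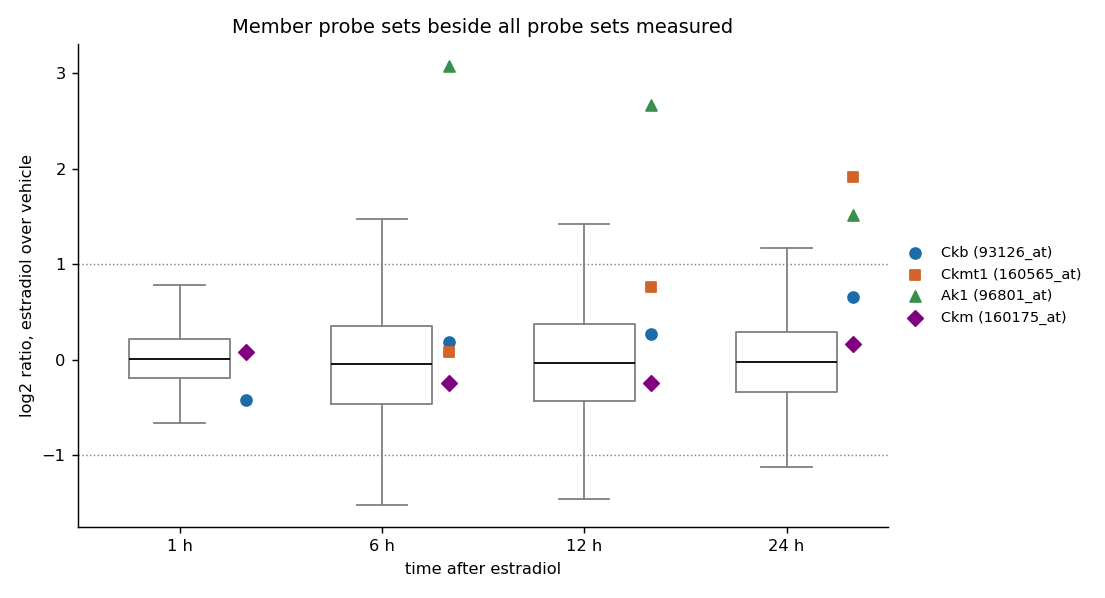
Log2 ratio of E2 over vehicle at 1, 6, 12 and 24 h for the measured probe sets of Ckb, Ckmt1 (160565_at), Ak1 and Ckm (160175_at), beside all measured probe sets (box, quartiles with the median; whiskers, percentiles 2.5 and 97.5). Dotted lines mark 2-fold. Ak1 at 6 h (3.08) and 12 h (2.67) and Ckmt1 at 24 h (1.91) lie above the whiskers; values against an array under the floor are lower bounds in size.

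Several tissues contribute to a whole uterus, and markers of some differed between the arrays. The summed signal of the 19 skeletal muscle markers was 5896 with vehicle and 5938, 4412, 6006 and 5794 at 1, 6, 12 and 24 h. Mb, the oxygen store of striated muscle, was under the floor on all 5 arrays. Members of the list differed among themselves. Pvalb, a calcium buffer of fast muscle, had 2805 with vehicle and 2840, 1187, 1194 and 1631 at the 4 times, and so set much of the lower sum at 6 h. Acta1, skeletal actin, had 485.4 with vehicle and 320.5, 945.7, 2566 and 1609, and Tnni1, a slow muscle troponin, was 2.10-fold higher at 1 h. Red cell markers, from another cell type that holds Ak1, summed to 3749 with vehicle and 4670, 4718, 3167 and 3082. The epithelium markers summed to 14796 with vehicle and 13696, 30244, 34786 and 51238, of which Krt6a alone gave 754.1, 1283, 16315, 19743 and 31370. Of 13 epithelium markers measured at 6 h, 3 were 2-fold higher (6.91% of all named genes measured) and 1 lower (9.10%). Of 14 at 24 h, 4 were higher (3.69%) and none lower (3.82%). Smooth muscle markers summed to 53513, 42985, 51822, 61468 and 71938, in the same order of arrays as Ckb apart from vehicle and 6 h. Of 10 smooth muscle markers, 2 were 2-fold higher at 12 h (6.71%) and 1 lower (7.55%). At 24 h 1 was higher (3.69%) and none lower (3.82%). Actg2 alone had 2350 with vehicle and 1735, 3973, 6923 and 10119 at the 4 times, while Smtn was 2.42-fold lower at 12 h. The stroma markers summed to 66515 with vehicle and 58278, 39274, 54113 and 88286, and the endothelium markers to 5451 with vehicle and 5383, 3233, 3125 and 3350. The stroma markers differed among themselves on these arrays too. Of 13 measured at 6 h, 1 was 2-fold higher (6.91%) and 5 lower (9.10%). Of 14 at 24 h, 3 were higher (3.69%), the collagens Col1a1, Col1a2 and Col3a1, and 1 lower (3.82%). The part of epithelium, smooth muscle or any other cell type in the kinase values was not tested. Pancreatic acinar markers (6 genes) summed to 1192 to 2387 on the E2 arrays, against 4769 with vehicle, and adipocyte markers (9 genes) to 14358 with vehicle and 15219, 7834, 5668 and 5118 at the 4 times. RNA quality differed little, with a 3′ to 5′ signal ratio of 1.13 to 1.25 for beta-actin and 0.793 to 0.892 for Gapdh.

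Genes known as estrogen-responsive in the uterus were read beside the kinases. Of 11 on the array, the number 2-fold higher was 3 at 1 h (0.928% of all named genes measured), 7 at 6 h (6.91%), 6 at 12 h (6.71%) and 4 at 24 h (3.69%). None was 2-fold lower, against 0.381%, 9.10%, 7.55% and 3.82% of all named genes measured at these times. Ltf, lactoferrin, and Wnt4, a Wnt ligand, were 1.90-fold and 1.87-fold lower at 12 h, and both are named after their values were seen. Ramp3, a receptor partner of adrenomedullin, had log2 ratios of 1.16, 3.49, 2.43 and 1.69 at these times, and Sprr2f, a cornified envelope protein, 0.33, 3.01, 3.52 and 3.76. Inhbb, a subunit of activin B, exceeded vehicle at least 25.2-fold at 6 h and at least 2.29-fold at 24 h. The highest of the 4 times thus came at 6 h for Ramp3 and Inhbb, as for Ak1, and at 24 h for Sprr2f, as for Ckmt1 160565_at and Ckb.

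Genes around the kinases were read from 5 lists holding 35 genes on the array, each by its brightest probe set. None of the 34 measured at 1 h was 2-fold higher (0.928% of all named genes measured) or lower (0.381%). At each later time 33 were measured. At 6 h, 5 were higher (6.91% of all named genes measured) and 2 lower (9.10%). The 12 h array had 6 higher (6.71%) and 2 lower (7.55%), and the 24 h array 3 higher (3.69%) and none lower (3.82%).

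None of the 3 genes of creatine supply was 2-fold higher at any of the 4 times (0.928%, 6.91%, 6.71% and 3.69% of all named genes measured). Gatm, which makes the precursor of creatine, had 318.5 with vehicle and 407.2, 151.3, 149.4 and 219.9 at 1, 6, 12 and 24 h, and was 2.11-fold lower at 6 h and 2.13-fold lower at 12 h. Gamt, which completes creatine synthesis, and Slc6a8, the creatine transporter, stayed within log2 ratios of -0.15 to 0.22 and -0.19 to 0.21. Of 7 other adenylate kinases listed, only Ak3, the GTP-dependent one of the mitochondrial matrix, had a probe set named by 1 symbol. Ak3 had 900.2 with vehicle and 913.5, 344.2, 397.2 and 842.3. It was 2.62-fold lower at 6 h and 2.27-fold lower at 12 h, the times at which Ak1 was highest, and 1.07-fold lower at 24 h. Its other probe set also lay below vehicle at 6 and 12 h, with log2 ratios of -1.27 and -0.85.

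Of the other nucleotide kinases, 3 of 13 measured were 2-fold higher at 6 h (6.91% of all named genes measured) and at 12 h (6.71%). At 24 h 2 of 13 were (3.69%), and none was 2-fold lower at these times (9.10%, 7.55% and 3.82%). Their median log2 ratio was 0.31, 0.55 and 0.35 at 6, 12 and 24 h, against -0.05, -0.04 and -0.04 over all named genes. Nme1 and Nme2, nucleoside diphosphate kinases that pass phosphate from ATP to other nucleotides, differed in timing. Nme1 had 146.7 with vehicle and 108.0, 682.0, 722.9 and 254.5 at 1, 6, 12 and 24 h, and Nme2 had 2216 and then 2029, 5673, 6307 and 7290. Nme1 was 4.93-fold higher at 12 h and 1.74-fold at 24 h, and Nme2 2.85-fold and 3.29-fold. The Nme1 probe set carries the suffix f, and the other Nme1 probe set had log2 ratios of 0.81, 0.36 and 0.86 at 6, 12 and 24 h. Uck2, which phosphorylates uridine and cytidine, was 2.84-fold higher at 6 h, 3.22-fold at 12 h and 1.89-fold at 24 h. Tk1, thymidine kinase, completes the count at 24 h at 2.55-fold, but its other probe set was not higher (log2 ratio -0.05), and it is named after its values were seen.

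Mitochondrial partners carry ATP, ADP and phosphate across the membranes beside which Ckmt1 works. Of 7 measured, 1 was 2-fold higher at 6 h (6.91% of all named genes measured), 2 at 12 h (6.71%) and 1 at 24 h (3.69%). None was 2-fold lower (9.10%, 7.55% and 3.82%). The median log2 ratios were 0.59, 0.71 and 0.34, against -0.05, -0.04 and -0.04 over all named genes. Slc25a5, an ADP and ATP exchanger, had 618.7 with vehicle and 739.4, 1857, 2137 and 1719 at 1, 6, 12 and 24 h, and was 3.00-fold, 3.45-fold and 2.78-fold higher at the last 3. These values are from a probe set of suffix f. Of the other 2 Slc25a5 probe sets, 1, of suffix r, reached 2-fold at 12 h alone. Its log2 ratios were 0.20, 1.01 and 0.52 at 6, 12 and 24 h. The other was under the floor with vehicle and at 6, 12 and 24 h. Vdac2, a channel of the outer membrane, was 2.97-fold higher at 12 h by a probe set of suffix r, while its other probe set was under the floor on all 5 arrays. Slc25a25, a calcium-regulated ATP carrier, was 1.96-fold higher at 12 h and 1.89-fold lower at 24 h. In AMP sensing and breakdown, 1 of 9 genes was 2-fold higher at 6 h and at 12 h and none at 24 h, beside the same shares. That gene was Ampd3, which removes the amino group of AMP, the product of the Ak1 reaction. Ampd3 had 449.9 with vehicle and 619.7, 1949, 1151 and 523.9 at 1, 6, 12 and 24 h, 4.33-fold higher at 6 h and 2.56-fold at 12 h. Adsl and Ada, which make AMP and deaminate adenosine, stayed within log2 ratios of -0.54 to 0.72 and -0.08 to 0.56.

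**Figure D3:**
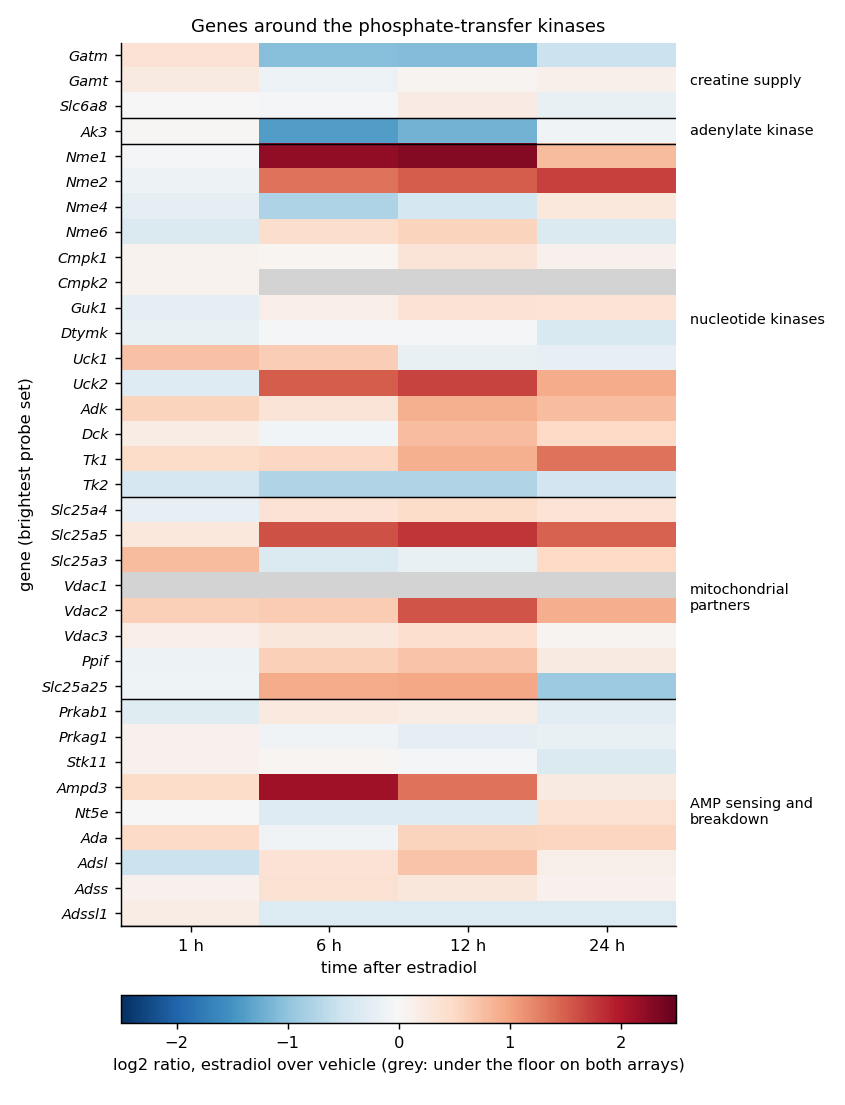
Log2 ratio of E2 over vehicle (colour) at 1, 6, 12 and 24 h for the 35 genes of 5 lists around the kinases, each by its brightest probe set; grey marks genes under the floor on both arrays. Ampd3 and Nme1 reach 2.11 and 2.22 at 6 h, Slc25a5 and Nme2 remain at 1.47 and 1.72 at 24 h, and Ak3 and Gatm are at -1.39 and -1.07 at 6 h.

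The genes whose ratios to vehicle were most like each kinase were ranked over 4784 candidates by the root mean square difference in log2 ratio over the 4 times. Ratios share the vehicle array, so likeness is a description. A time at which both arrays lay under the floor entered as a ratio of 0, which applied to Ak1 and Ckmt1 at 1 h and to Kif20a and Crabp1 at 1 and 6 h, so likeness at those times says only that signal was low. Nearest to Ak1 were Srm (0.27), which makes spermidine, Mthfd2 (0.29), a mitochondrial folate enzyme, Padi1 (0.49), which converts arginine to citrulline in proteins, and Lrrc59 (0.56). No gene lay within 0.25 of Ak1. Nearest to Ckmt1 were Kif20a (0.13), a mitotic kinesin, Crabp1 (0.19), a retinoic acid binding protein, Perp (0.20), a protein of desmosomes, and Psapl1 (0.21), and 5 genes lay within 0.25. Within 0.25 of Ckb lay 115 genes. The ratios of Ckb were small, and many genes have ratios that small. The counts within 0.25 are therefore not set against each other between kinases. Nearest to Ckb were Pkm (0.07), a glycolytic kinase, Cox6a1 (0.07) and Ndufb8 (0.11), respiratory chain subunits, and Wdr61 (0.12). The neighbours of Ckb were added after its values were seen.

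On the array labelled 3 h, Ak1 and some probe sets of the kinases of striated muscle were far above vehicle. Of 6 probe sets measured there, 4 were 2-fold higher than vehicle (11.8% of all measured probe sets) and none lower (12.9%). Ckmt2 103618_at had 5302 on this array, against 10.5 with vehicle, at least 37.1-fold higher. Ckm 161569_f_at had 3341, against 18.9 with vehicle, at least 23.4-fold higher. Both genes encode creatine kinases of striated muscle, and neither of these probe sets passed the floor on any other array. Ak1 had 2977 on this array, against 139.1 with vehicle, at least 20.8-fold higher, and its level exceeded that at 6 h. Ckmt2 162015_f_at had 770.0, against 34.9, at least 5.39-fold higher.

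Probe sets of the same gene disagreed there. Ckmt2 161876_r_at had 11.7 and Ckm 160175_at had 128.7, both under the floor. Ckmt1 had 103.2 (160565_at) and 72.6 (161495_r_at), and Ak4 105.1 and 86.9, also under it. Ckb had 3362, against 3607 with vehicle, 1.07-fold lower, a direction that turned with scaling to the same median. Of 18 skeletal muscle markers measured on this array or with vehicle, 16 were 2-fold higher on it (11.4% of all named genes measured). Mb had 7104 there, against 63.7 with vehicle. All 6 red cell markers were 2-fold higher on this array too, beside the same share. The part of skeletal muscle or blood in its kinase values was not tested. No value at 1, 6, 12 or 24 h above was computed from this array, apart from its share in the floor and in the choice of a gene's brightest probe set.

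**Figure D4:**
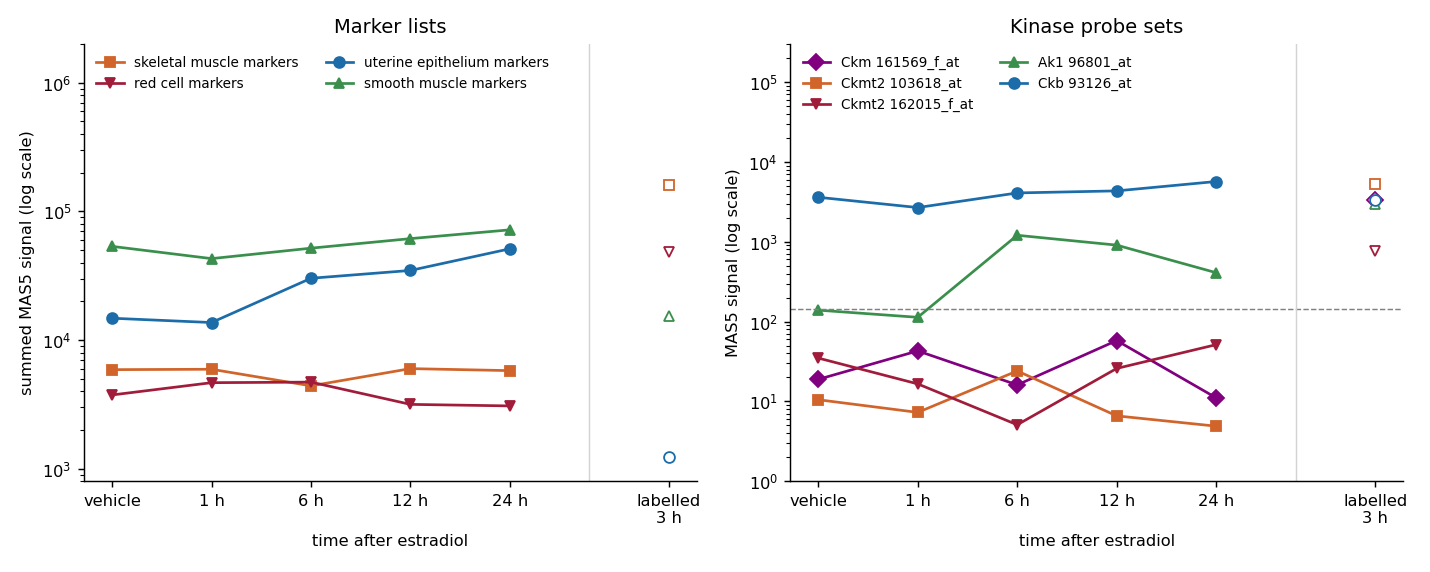
Summed MAS5 signal of 4 marker lists (left) and MAS5 signal of 5 kinase probe sets (right), both on log scales, in vehicle and at 1, 6, 12 and 24 h after E2 (filled points with lines) and on the array labelled 3 h (open points), 1 array each; the dashed line is the floor of 142.8. Skeletal muscle markers reach 161790 on the array labelled 3 h, and Ckmt2 103618_at, Ckm 161569_f_at and Ak1 reach 5302, 3341 and 2977 there.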

How the data were processed

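RNA of pooled mouse uteri was hybridised, from 20 µg of total RNA, to 6 Affymetrix U74Av2 arrays. The deposited signal intensity (linear) came from the authors' MAS5 software, per the submitters' processing notes, whose version the sources used here do not give. Trimmed means of 497 to 498 on every array show that they had been scaled. Of 12488 probe sets, 66 controls were left out. The array's annotation named 10833 probe sets by 1 symbol, 396 by several and 1193 by none, and 10817 matched RefSeq (GRCm38.p6).

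The arrays were set to a common 2% trimmed mean, values under 142.8 were raised to that floor, and log2 was taken (Python 3.11.15, numpy 2.4.6, pandas 2.3.3). The ratio computation was tested on simulated data, with changes put only into probe sets bright with vehicle. That test did not cover changes from a vehicle value under the floor, as for Ak1 and Ckmt1. A 2-fold minimum served to count. Named genes were all member probe sets, up to 3 genes per list with the largest log2 ratio, and the 4 genes most like each member that reached 2-fold. Mb, Col1a1, Col1a2, Col3a1, Hoxa10 and Hoxa11 are named outside this rule, with their values known. The members and lists were chosen with earlier results of these data known. Alternatives changed the scaling, floor, reference, fold and choice of probe set. A planned comparison of protein sequences was not made. The number of arrays limits the precision.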

Additional observations from a re-analysis of the deposited data

Results flagged for a closer look

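Ckb lay below vehicle at 1 h and above it at 24 h, and the log2 ratio at 24 h exceeded that at 1 h by 1.08. With 1 array per time the difference was not tested.

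On the array labelled 3 h, which entered no comparison over time, 4 probe sets gave signal far above vehicle. The log2 ratios to vehicle were at least 5.21 for Ckmt2 103618_at, at least 4.55 for Ckm 161569_f_at, at least 4.38 for Ak1 and at least 2.43 for Ckmt2 162015_f_at. The skeletal muscle markers on that array summed to 26.9 times their highest sum on the other arrays, and the red cell markers to 10.2 times.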

How the results depend on the processing

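Over 20 counts of members or related genes, 141 of 154 recomputed values equalled the reported one or stayed within 1.5 times it. Many of these were counts of 0 that stayed 0. The 20 from values as deposited could differ little, because those arrays had already been scaled. A floor at the 20th percentile (39.8) gave more member probe sets 2-fold higher, 2 (1 h), 2 (6 h), 2 (12 h) and 3 (24 h), adding Ckmt1 161495_r_at at 1 h (log2 ratio 1.19) and Ak4 99521_at at 1, 6, 12 and 24 h (1.85 at 12 h). A floor at the 60th percentile (352.7) left 0 at 24 h, with Ak1 at 0.22 and Ckmt1 at 0.61. A 1.5-fold limit gave 2 at 12 h. Related genes 2-fold lower at 6 h were 5 with the 20th percentile floor and 1 each with the 60th percentile floor, median scaling and quantile normalization with or without the array labelled 3 h. Those lower at 12 h were 1 with the 60th percentile floor, and those lower at 24 h were 2 with the 20th. Related genes higher at 24 h were 1 when the median of a gene's probe sets was used. The cause was not tested beyond what the floor itself sets.

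Of 172 recomputed ratios of single probe sets, 160 kept their direction and side of 2-fold, 6 passed it and 2 no longer did. In 4 the sign turned: Ckb at 3 h (0.03 with median scaling, 0.11 against the mean of vehicle and 1 h) and Ckm 160175_at at 1 h (-0.00 with either quantile normalization). Over all alternatives Ckb ranged from -0.48 to -0.40 at 1 h and from 0.51 to 0.87 at 24 h, and Ak1 at 6 h from 1.77 to 3.13. Median scaling moved the median of all probe sets by over 0.1 at 3 h alone, to -0.03, against -0.15. Using the 1 h array as reference at 24 h and dropping the floor were chosen after seeing the data. Signal near the floor limits what can be said of Ckm, Ckmt2 and Ak4. No paired analysis was possible because each group has 1 array.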
